A study of Homo sapiens with 23 samples.

Results

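The genes of the BAP1 deubiquitinase complex were followed through 8 RNA-seq libraries of HCT116, a human colorectal cancer cell line. The set was a list of 10 genes out of 28105 genes with a symbol in the deposited tables: BAP1, ASXL1, ASXL2, ASXL3, FOXK1, FOXK2, HCFC1, OGT, KDM1B and MBD6. RefSeq transcripts were matched to symbols, and the transcript row with the highest mean read count stood for each gene. BAP1 is a nuclear ubiquitin hydrolase that removes ubiquitin from histone H2A, where Polycomb complexes place it. Its catalytic activity needs an ASXL protein, which binds and activates it, and the FOXK transcription factors bring the complex to DNA. HCFC1, the cofactor HCF-1, binds BAP1 directly, OGT adds O-linked N-acetylglucosamine to nuclear proteins and cuts HCF-1 to its mature form, and KDM1B (a histone H3K4 demethylase) and MBD6 are further components.

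Libraries were made from polyadenylated RNA in 4 groups of 2: cells labelled BAP1 KO, their control, cells labelled MLL4 KO, and WT. MLL4, encoded by KMT2D, methylates histone H3 lysine 4 at enhancers, and 15 ChIP-seq samples of the series were not analysed here. The control cells carry the genotype label WT, the same as the WT group, and no treatment is labelled for any group. The tables of the BAP1 KO and control groups are named with osTir1 (an auxin receptor F-box protein from plants, the basis of degron systems) and with STAR counting on exons, and those of MLL4 KO and WT are named with neither. Line, handling and counting therefore cannot be told apart in control against WT. The sources used here do not say how the knockouts were made or whether replicates are separate cultures or clones, so p-values measure only the spread between these libraries. The comparisons BAP1 KO against control and MLL4 KO against WT set the cells of each knockout label against their reference, and control against WT sets the 2 reference lines side by side. The control libraries serve both BAP1 KO against control and control against WT, and the WT libraries serve both MLL4 KO against WT and control against WT.

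The tables held 24.8 to 42.2 M counts over genes per library (M, 1e6). No pair of replicates agreed within sampling noise, with a median chi-square per gene of 3.99 in BAP1 KO, 1.36 in control, 6.05 in MLL4 KO and 7.15 in WT. Of 8 colorectal epithelial markers, 7 reached 1 CPM (counts per 1e6, scaled by TMM) in both libraries of at least 1 group and CDH17 reached it in none. The summed level of these markers was 1921 to 2227 CPM in BAP1 KO, 3808 to 3830 CPM in control, 4566 to 4588 CPM in MLL4 KO and 2809 to 2814 CPM in WT, and its part in the results was not tested. KRT8 and KRT18 made up most of the sum, with means of 2954 and 1391 CPM in MLL4 KO. At an adjusted p under 0.05, 3 markers rose and EPCAM fell in MLL4 KO against WT, where 19.1% of all tested genes passed. In BAP1 KO against control KRT20 rose and 5 markers fell, where 22.4% passed. Single markers thus did not all follow the sum. Blood, fibroblast and endothelial markers summed to 34.5 to 83.4 CPM, and 4 of 7 stayed under 1 CPM in all 8 libraries. COL1A1 (25.5 to 54.9 CPM) and CD68 (4.03 to 28.2 CPM) made up most of that sum. CD68 fell in BAP1 KO against control (log2 fold change -2.18, adjusted p = 0.00788). In control against WT, where 39.6% of all tested genes passed, CD68 rose by 2.12 (0.00465) and COL1A1 by 0.68 (0.0227). Neither passed in MLL4 KO against WT. The messenger RNA of KMT2D was 280 and 406 CPM in libraries labelled MLL4 KO, against 309 and 371 CPM in WT (adjusted p = 0.97), so it does not check the label. It was 267 and 228 CPM in BAP1 KO and 239 and 259 CPM in control.

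Per transcript length, OGT and FOXK2 were the most abundant of the 10 messages and ASXL2 the least abundant of those detected. On the deposited RPKM scale (reads per 1e3 bases of transcript and 1e6 reads), the median level over the 8 libraries was 37.1 for OGT, 27 for FOXK2, 15.1 for BAP1, 12 for HCFC1, 11.9 for ASXL1, 10.8 for MBD6, 9.71 for FOXK1, 6.69 for KDM1B and 4.75 for ASXL2. FOXK2 lay above BAP1 in 8 of 8 libraries, and KDM1B above ASXL2 in 8 of 8. OGT lay above FOXK2 in 6 of 8 libraries and in 0 of the WT libraries. The middle of the order was not fixed: HCFC1 exceeded ASXL1, ASXL1 exceeded MBD6 and MBD6 exceeded FOXK1 in 4 of 8 libraries each. HCFC1 took place 6 of the 10 in BAP1 KO, 6 in control, 4 in MLL4 KO and 2 in WT, and MBD6 took place 5, 4, 7 and 8 in the same order of groups. The mean RPKM of HCFC1 was 9.06 ± 0.754 in BAP1 KO, 7.57 ± 0.0723 in control, 15.5 ± 1.62 in MLL4 KO and 26.1 ± 3.36 in WT (SD, n = 2 each). ASXL3, the third activator paralog (chromosome 18, 33578219 to 33751195, hg38), had 0 counts in all 8 libraries, and a limit of 3 counts corresponds to at most 0.118 CPM in any of them, for counting error alone.

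**Figure D1:**
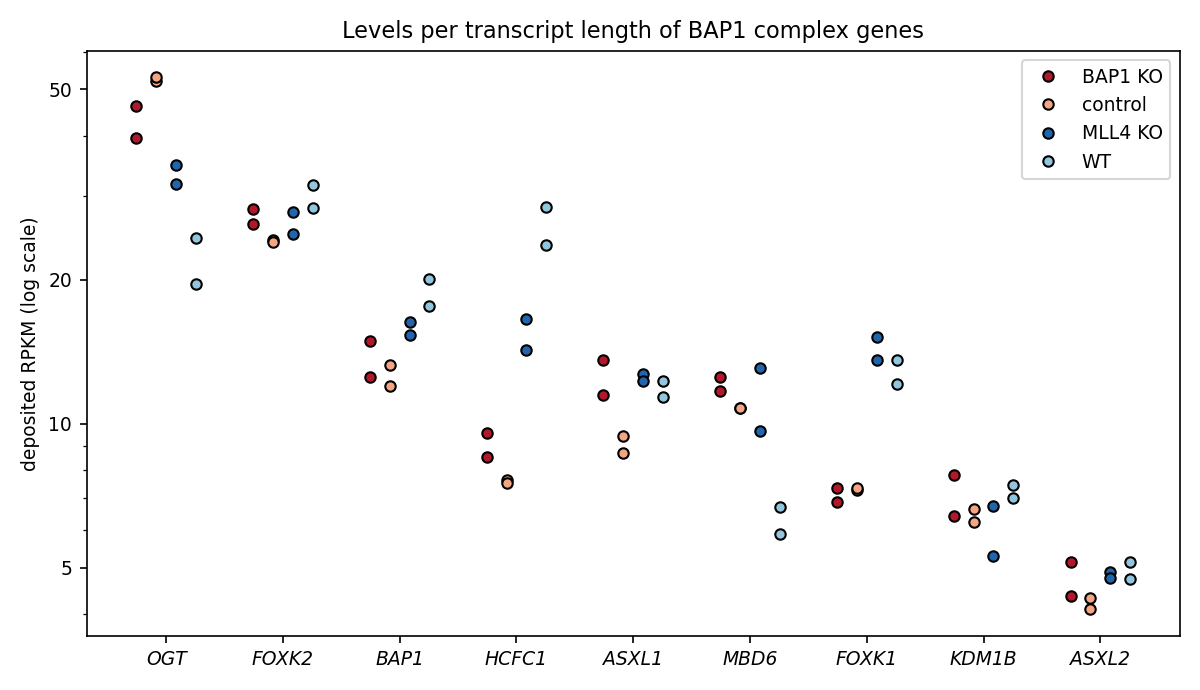
Deposited RPKM (log axis) of 9 BAP1 complex genes, ordered by their median, with 1 point per library and 2 libraries for each of BAP1 KO, control, MLL4 KO and WT. OGT spans 19.6 to 53 RPKM and HCFC1 7.52 to 28.4 RPKM, while ASXL2 stays between 4.1 and 5.14 RPKM.

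In no comparison did most members pass in 1 direction. ASXL3 did not pass the filter on low counts. Of the 9 members tested, 1 rose in BAP1 KO against control (ASXL1) and none fell, and 22.4% of all 16831 tested genes passed there (12.1% higher, 10.4% lower). In MLL4 KO against WT, OGT and MBD6 rose and HCFC1 fell, which is 3 of 9 members where 19.1% of all tested genes passed (9.13% higher, 10% lower). In control against WT, OGT and MBD6 rose and BAP1, FOXK1 and HCFC1 fell, 5 of 9 members where 39.6% passed (19.9% higher, 19.7% lower). With 9 members these counts are descriptions beside the shares of all genes and mark nothing particular to the complex. The libraries of the groups did not overlap for 6 members in BAP1 KO against control (72.2% of all genes), 6 in MLL4 KO against WT (60.3%) and 8 in control against WT (73.6%). The median log2 fold change of the 9 members was 0.11, -0.02 and -0.25 in these comparisons in turn, beside 0.01, 0.00 and 0.02 over all tested genes. The test was edgeR's quasi-likelihood test with Benjamini-Hochberg adjustment over all tested genes. Log2 fold changes below compare 2 libraries with 2. Their SE comes from a fit to all 8 libraries in which the 4 groups share the estimate of spread, although their replicates differ in noise.

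**Figure D2:**
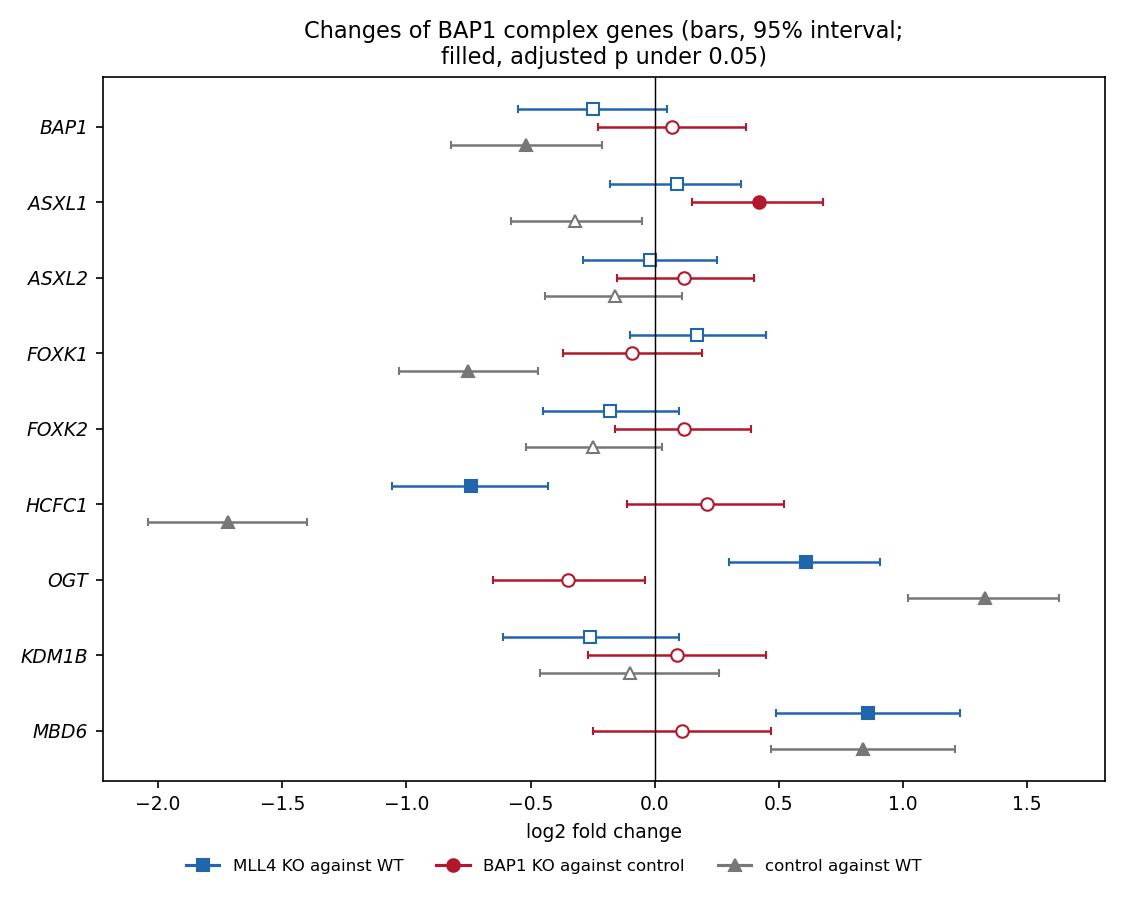
Log2 fold changes (points) with 95% confidence intervals (bars) of 9 BAP1 complex genes in BAP1 KO against control (circles), MLL4 KO against WT (squares) and control against WT (triangles), 2 libraries per group. Filled points passed an adjusted p of 0.05: HCFC1 lies furthest to the left at -1.72 and OGT furthest to the right at 1.33, both in control against WT.

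BAP1, the catalytic subunit (chromosome 3, 52401008 to 52410008, hg38, 1 transcript row of 3599 bases), had 67.4 and 57.4 CPM of messenger RNA in libraries labelled BAP1 KO, against 56.7 and 62.1 CPM in control. These libraries overlapped, and the log2 fold change was 0.07 ± 0.13, with a 95% interval of -0.23 to 0.37 and adjusted p = 0.746. BAP1 messenger RNA is therefore no check on the knockout label, and every direction for BAP1 KO rests on the labels. It stood at 73.2 and 69.8 CPM in MLL4 KO, against 77.9 and 92.1 CPM in WT. The MLL4 KO libraries were both lower, but the difference of -0.25 ± 0.13 did not pass (95% interval -0.55 to 0.05, adjusted p = 0.208). BAP1 fell in control against WT, at a log2 fold change of -0.52 ± 0.13 (adjusted p = 0.0141). That call was lost without WT replicate 2 (adjusted p = 0.0618), without control replicate 1 (0.135) and without control replicate 2 (0.0683).

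Across the 8 libraries the genes whose log2(CPM + 1) followed BAP1 most closely were PPP2R1B (a scaffold subunit of protein phosphatase 2A), the transcription factor gene MGA and the kinase gene BRSK2. Pearson's r with BAP1 was 0.988, 0.985 and 0.985, the highest among 12009 genes with a mean of at least 5 CPM, and it is given as a description over 8 libraries that share 4 groups. MGA, for example, stood at 56.2 and 48.8 CPM in BAP1 KO, 49.9 and 52.3 CPM in control, 64.7 and 60.7 CPM in MLL4 KO and 74.7 and 92.9 CPM in WT.

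Of the activator genes, ASXL1 rose in BAP1 KO and ASXL2 passed in no comparison. ASXL1 (chromosome 20, 32358331 to 32439319, hg38) stood at 120 and 104 CPM in BAP1 KO, against 80.9 and 86.6 CPM in control. Both knockout libraries were higher, a log2 fold change of 0.42 ± 0.12 or 1.33-fold (95% interval 0.15 to 0.68, adjusted p = 0.0328). The call was lost without BAP1 KO replicate 1 (adjusted p = 0.225), without control replicate 1 (0.255) and without control replicate 2 (0.171). ASXL1 had 112 and 110 CPM in MLL4 KO, against 107 and 102 CPM in WT. That difference was 0.09 ± 0.12 (95% interval -0.18 to 0.35, adjusted p = 0.623). The control libraries were the lowest of the 8 for this gene, and control against WT gave -0.32 ± 0.12 (adjusted p = 0.0578). That value passed with RLE scaling (adjusted p = 0.0469) and in a fit on the 4 libraries alone (0.0493).

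ASXL1 has 3 transcript rows, and the short transcript NM_001164603 (1070 bases) carried 8.78% as many reads as the full-length NM_015338 (7052 bases). The log2 ratio of the mean CPM of this short row was 0.29 in BAP1 KO over control, 0.01 in MLL4 KO over WT and -0.73 in control over WT. The same ratios of the full-length row were 0.42, 0.09 and -0.32, with no test run on single transcripts. Rows of isoforms repeat shared reads, so the ratios of the short row cannot be read as changes of that transcript alone. ASXL2 (chromosome 2, 25733753 to 25878487, hg38) had 82.7 and 71.2 CPM in BAP1 KO, against 69.3 and 72.2 CPM in control. These libraries overlapped, with a log2 fold change of 0.12 ± 0.12 (95% interval -0.15 to 0.40). It had 78.6 and 77.7 CPM in MLL4 KO, against 74.6 and 83.9 CPM in WT, a difference of -0.02 ± 0.12 (95% interval -0.29 to 0.25). Within a library, the RPKM of ASXL1 over that of ASXL2 was 2.64 and 2.65 in BAP1 KO against 2.13 and 2.19 in control, and 2.6 and 2.57 in MLL4 KO against 2.61 and 2.21 in WT. The libraries of BAP1 KO and control were apart in this ratio, as in every ratio computed here. Those of MLL4 KO and WT overlapped, with no test run on it.

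**Figure D3:**
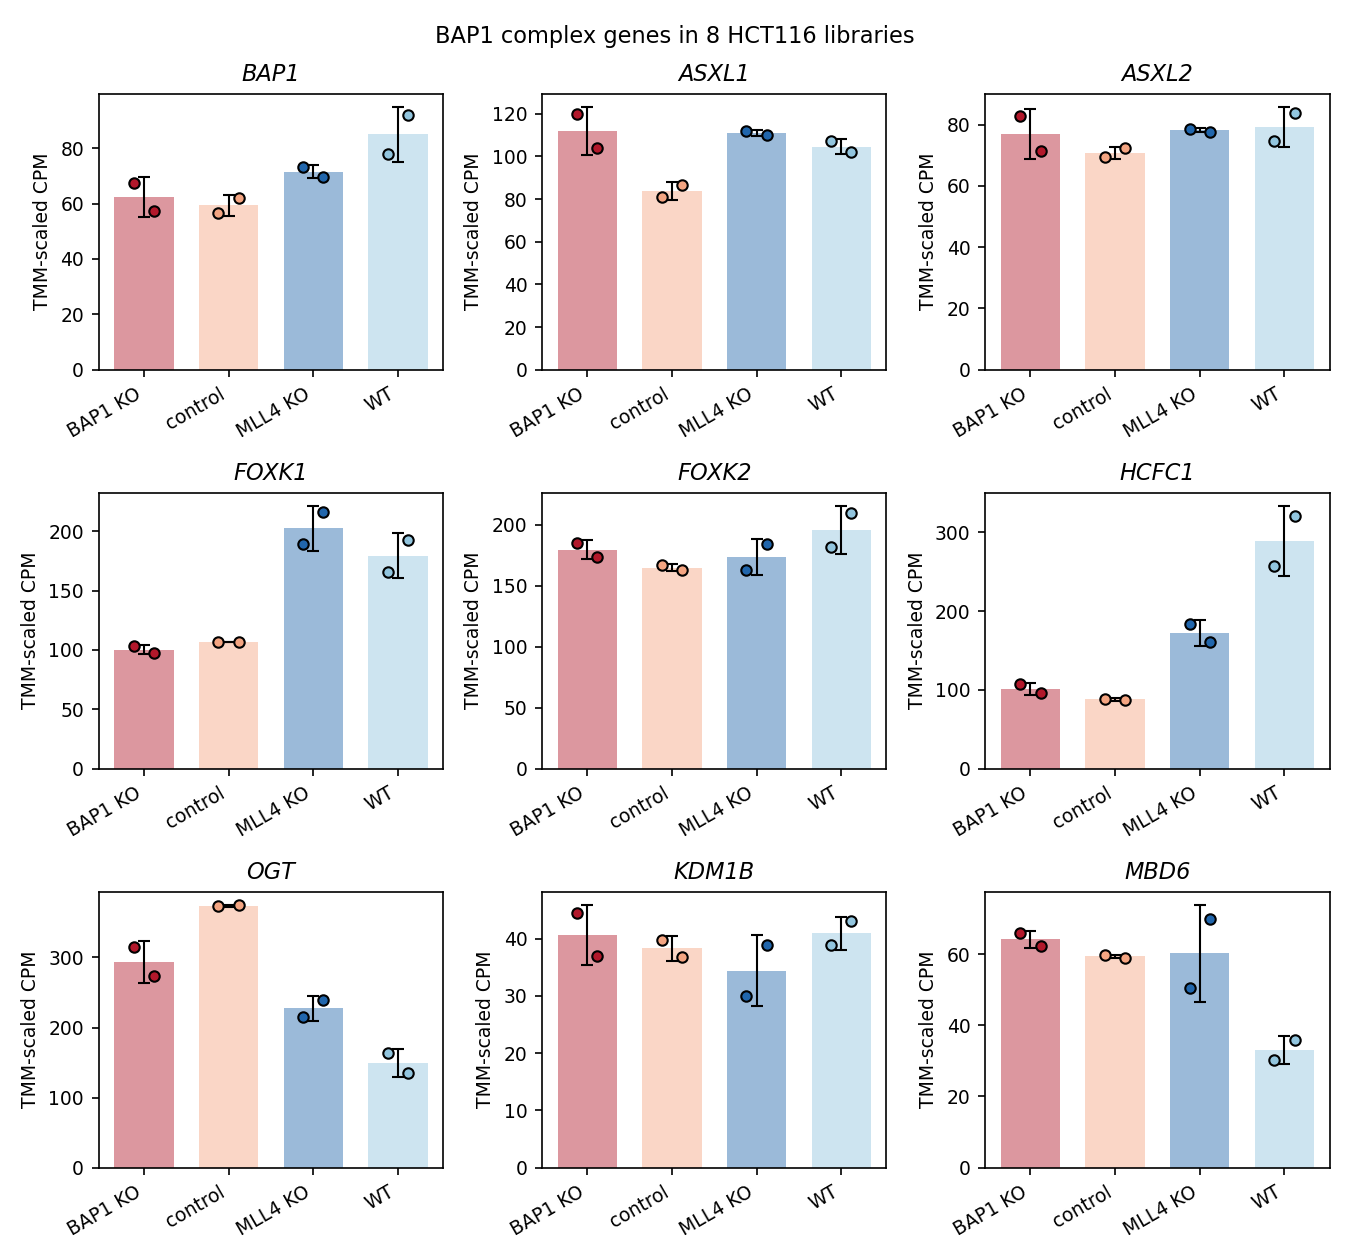
TMM-scaled CPM (linear axes from 0) of 9 BAP1 complex genes in BAP1 KO, control, MLL4 KO and WT; points are libraries, bars the mean of 2 and error bars the SD. FOXK1 sits at 97.8 to 107 CPM in BAP1 KO and control against 166 to 216 CPM in MLL4 KO and WT, and OGT is highest in control.

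FOXK1 and FOXK2 encode forkhead factors that bind the complex, and neither passed in a knockout. FOXK1 (chromosome 7, 4682295 to 4771442, hg38) had 103 and 97.8 CPM in BAP1 KO, against 107 and 107 CPM in control, a log2 fold change of -0.09 ± 0.12 (95% interval -0.37 to 0.19, adjusted p = 0.635). It had 189 and 216 CPM in MLL4 KO, against 166 and 193 CPM in WT, a log2 fold change of 0.17 ± 0.12 (95% interval -0.10 to 0.45, adjusted p = 0.338). Every BAP1 KO and control library was thus below every MLL4 KO and WT library. FOXK1 fell by 0.75 ± 0.12 in log2 units in control against WT (adjusted p = 0.0017), and all 20 alternative settings kept that call.

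FOXK2 (chromosome 17, 82519732 to 82604602, hg38, where the antisense gene FOXK2-AS1 overlaps it) had 185 and 174 CPM in BAP1 KO, against 167 and 163 CPM in control. The knockout libraries were higher, at 0.12 ± 0.12 (95% interval -0.16 to 0.39, adjusted p = 0.532). FOXK2 had 163 and 184 CPM in MLL4 KO, against 182 and 210 CPM in WT, a log2 fold change of -0.18 ± 0.12 (adjusted p = 0.331). Control against WT gave -0.25 ± 0.12 for it (adjusted p = 0.139, and 0.0477 without WT replicate 1). The sources used here do not give the strand setting of the counting, so reads of a gene and of a partner on the other strand cannot be told apart.

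HCFC1 and OGT, a substrate and the enzyme that matures it, moved in opposite directions in MLL4 KO against WT. They did so more strongly in control against WT. The WT libraries held the highest HCFC1 and the lowest OGT levels of the 8 libraries, and a link between these genes was not tested. HCFC1 (chromosome X, 153947557 to 153971818, hg38, overlapped by HCFC1-AS1) stood at 184 and 161 CPM in MLL4 KO, against 258 and 321 CPM in WT. Both knockout libraries were lower, and HCFC1 fell by 0.74 ± 0.14 in log2 units (95% interval -1.06 to -0.43, adjusted p = 0.0128). The call was lost without MLL4 KO replicate 2 (adjusted p = 0.0718) and when the 4 libraries of this comparison were fitted alone (0.0869). In BAP1 KO the gene had 107 and 96.2 CPM, against 89.1 and 86.9 CPM in control. The knockout libraries were both higher, and the log2 fold change of 0.21 ± 0.14 did not pass (95% interval -0.11 to 0.52, adjusted p = 0.323). Control lay far below WT, at -1.72 ± 0.14 or 3.29-fold lower (adjusted p = 4.96e-05), and 8.4% of tested genes changed by more. All 20 alternative settings kept that call.

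OGT (chromosome X, 71533104 to 71575892, hg38) stood at 215 and 240 CPM in MLL4 KO, against 163 and 135 CPM in WT. Both knockout libraries were higher, a log2 fold change of 0.61 ± 0.14 or 1.52-fold (95% interval 0.30 to 0.91, adjusted p = 0.0201). The call was lost without MLL4 KO replicate 2 (adjusted p = 0.0939), WT replicate 2 (0.087), control replicate 1 (0.0527) or control replicate 2 (0.0555), and in the fit on 4 libraries (0.105). OGT had 315 and 273 CPM in BAP1 KO, against 373 and 375 CPM in control. The knockout libraries were lower, at -0.35 ± 0.13 (95% interval -0.65 to -0.04, unadjusted p = 0.0286), and the adjusted p of 0.0946 did not pass. It passed without WT replicate 1 (adjusted p = 0.0444), without WT replicate 2 (0.0445) and in the fit on the 4 libraries of that comparison (0.0153). Control lay above WT by 1.33 ± 0.14 or 2.51-fold (adjusted p = 0.000155), and all 20 alternative settings kept that call. The second of 2 transcript rows of OGT carried 99.6% as many reads and gave the same log2 ratios in every comparison. Rows of isoforms repeat shared reads, so this sameness is no separate result.

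The effect of MLL4 KO minus that of BAP1 KO was tested directly, across 2 pairs of groups whose tables are named differently. Knockout, line and counting cannot be told apart in this difference. It was 0.96 ± 0.19 for OGT (adjusted p = 0.012) and -0.95 ± 0.20 for HCFC1 (adjusted p = 0.0135), and 16.1% of all tested genes passed this test (7.75% with a positive and 8.32% with a negative difference). Without control replicate 1 or 2 the adjusted p was 0.0624 and 0.0681 for OGT and 0.0741 and 0.0855 for HCFC1. HCFC1 also lost the call without BAP1 KO replicate 1 (0.067). The difference was 0.75 ± 0.23 for MBD6 and missed the threshold (adjusted p = 0.0539). It passed with upper-quartile scaling (0.0307), by DESeq2 (0.0309), with no filter on low counts (0.0496) and with a filter of at least 1 CPM in 4 libraries (0.044). With 1 library left out, the MBD6 difference ranged from 0.53 to 0.96.

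OGT and HCFC1 both lie on chromosome X, far apart. Over the 10 tested genes next to OGT (5 on each side) the median log2 fold change was 0.06 in MLL4 KO against WT and -0.42 in control against WT. Over the 10 next to HCFC1 it was 0.17 in MLL4 KO against WT and -0.23 in control against WT.

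**Figure D4:**
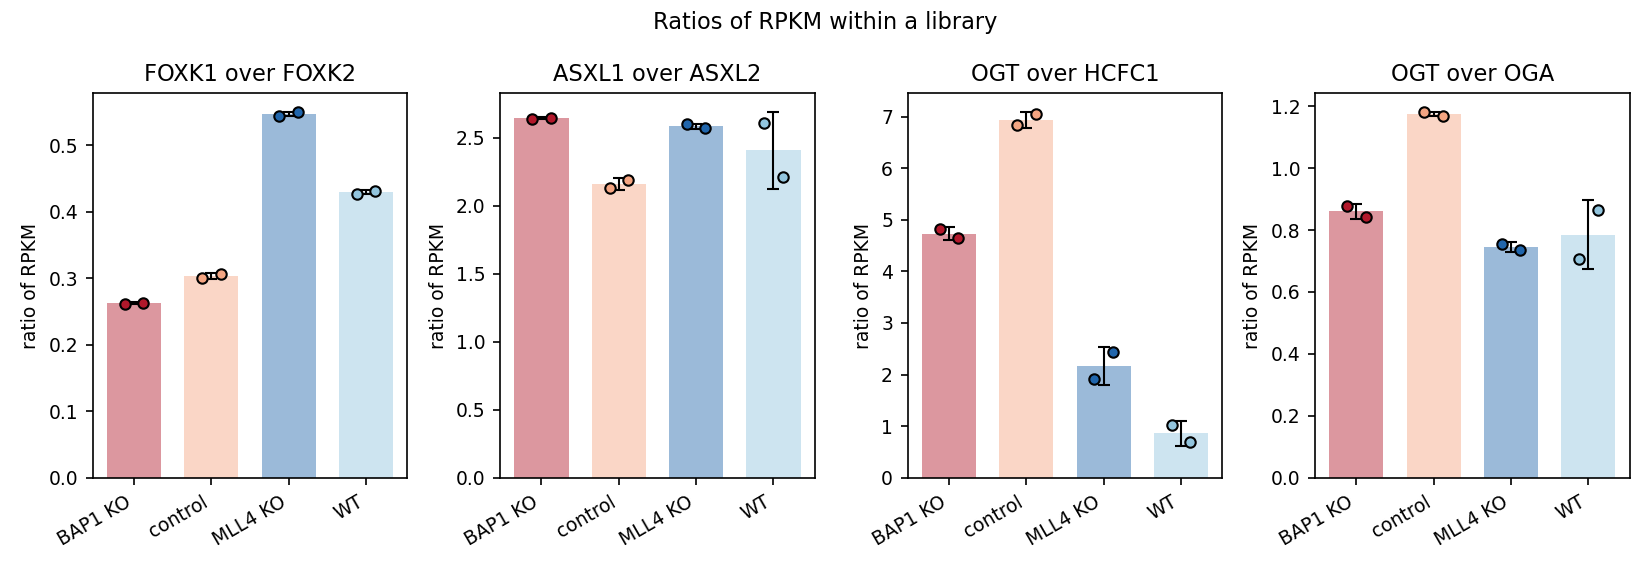
Ratios of RPKM of paired genes within each library (linear axes from 0) in BAP1 KO, control, MLL4 KO and WT; points are libraries, bars the mean of 2 and error bars the SD. OGT over HCFC1 is 6.83 and 7.05 in control and 0.689 and 1.03 in WT, and FOXK1 over FOXK2 differs between every pair of groups by more than its spread.

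Ratios within a library do not depend on how libraries were scaled. The RPKM of OGT over that of HCFC1 was 4.82 and 4.64 in BAP1 KO, against 6.83 and 7.05 in control. It was 1.91 and 2.43 in MLL4 KO, against 1.03 and 0.689 in WT. The groups of neither comparison overlapped, and the MLL4 KO and BAP1 KO libraries lay on opposite sides of their references. Both followed from the single levels above, where OGT and HCFC1 were already apart in opposite directions, so this ratio is no separate result. FOXK1 over FOXK2 was 0.261 and 0.263 in BAP1 KO, against 0.3 and 0.306 in control. It was 0.544 and 0.549 in MLL4 KO, against 0.427 and 0.431 in WT. The pair of replicates in each group thus lay closer together than any neighbouring groups did, although neither FOXK gene passed alone in a knockout. OGT over OGA, the hydrolase that removes the sugar OGT adds, was 0.877 and 0.843 in BAP1 KO, against 1.18 and 1.17 in control. It was 0.756 and 0.734 in MLL4 KO, against 0.706 and 0.865 in WT, and there the libraries overlapped. The summed RPKM of ASXL1 and ASXL2 over that of BAP1 was 1.25 and 1.27 in BAP1 KO against 1.07 and 1.04 in control, and 1.08 and 1.11 in MLL4 KO against 0.968 and 0.82 in WT. No test was run on these ratios, and how often ratios of other genes separate was not counted. Libraries of single genes did not overlap for 72.2% of all tested genes in BAP1 KO against control and 60.3% in MLL4 KO against WT. MBD6 over MBD5 was also computed, at 7.48 and 9.19 in BAP1 KO against 10.5 and 11 in control. In the same groups BAP1 over HCFC1 was 1.56 and 1.47 against 1.57 and 1.76. OGT over BAP1 was 3.09 and 3.15 against 4.35 and 4. In MLL4 KO against WT, MBD6 over MBD5 overlapped, while BAP1 over HCFC1 and OGT over BAP1 did not. Every ratio computed thus separated BAP1 KO from control, so separation there marks nothing particular to a pair of genes.

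MBD6, a methyl-CpG-binding domain protein of the complex (chromosome 12, 57520715 to 57531545, hg38), rose in MLL4 KO. It had 50.6 and 69.9 CPM in MLL4 KO, against 30.3 and 35.8 CPM in WT. Both knockout libraries were higher, a log2 fold change of 0.86 ± 0.16 or 1.82-fold (95% interval 0.49 to 1.23, adjusted p = 0.0137). The call was lost without MLL4 KO replicate 2 (adjusted p = 0.0568) and in the fit on 4 libraries (0.0869). In BAP1 KO it had 65.9 and 62.4 CPM, against 59.7 and 59 CPM in control, a log2 fold change of 0.11 ± 0.16 (95% interval -0.25 to 0.47, adjusted p = 0.662). Control against WT gave 0.84 ± 0.16 (adjusted p = 0.00355), so WT held the lowest levels of the 8 libraries.

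Of the 10 tested genes next to MBD6, 5 rose in MLL4 KO against WT and none fell, where 9.13% of all tested genes rose. The median log2 fold change of these neighbours was 0.97 in that comparison, with values from -0.24 to 3.44. In control against WT, where the log2 fold change of MBD6 was 0.84 and 19.9% of all tested genes rose, the neighbours' median was 0.12, with 4 higher and 1 lower. Their values there ran from -0.66 to 5.33. DDIT3, the stress transcription factor gene that lies just before MBD6, changed by 3.07 ± 0.41 in MLL4 KO against WT (adjusted p = 0.0101). Its log2 fold change was 3.26 ± 0.42 in control against WT (0.00134) and -0.48 ± 0.37 in BAP1 KO against control (0.402). DCTN2, a dynactin subunit gene that overlaps the end of MBD6, had 83.4 and 90.4 CPM in MLL4 KO, against 77 and 68.3 CPM in WT, a log2 fold change of 0.26 ± 0.12 (adjusted p = 0.158). The part of these neighbours in the MBD6 value was not tested.

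KDM1B (chromosome 6, 18155422 to 18223854, hg38) passed in no comparison. It had 44.4 and 37 CPM in BAP1 KO, against 39.8 and 36.8 CPM in control, a log2 fold change of 0.09 ± 0.16 (95% interval -0.27 to 0.45, adjusted p = 0.722). It had 30 and 38.8 CPM in MLL4 KO, against 38.9 and 43 CPM in WT, a log2 fold change of -0.26 ± 0.16 (95% interval -0.61 to 0.10, adjusted p = 0.276). The MLL4 KO libraries were both lower, by less than 1 CPM for the nearest pair. The second transcript row of KDM1B carried 85.6% as many reads. It gave log2 ratios of 0.09 in BAP1 KO over control and -0.24 in MLL4 KO over WT, from reads that the rows largely share.

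The promoter windows of the 3 members that rose in a knockout are shown so that their sequences can be compared and searched for motifs of the DNA-binding partners. Windows come from RefSeq on GRCh38.p14, and the 250 bases before the start site are printed on the + strand of chrX:71532854-71533103 (OGT), chr12:57522574-57522823 (MBD6) and chr20:32358815-32359064 (the third of 3 ASXL1 windows), the last 2 inside the span of their gene, with a motif match in capitals. That ASXL1 window was chosen for its match, and the other ASXL1 windows, of which the first ends just before the gene's annotated start, hold none.
OGT: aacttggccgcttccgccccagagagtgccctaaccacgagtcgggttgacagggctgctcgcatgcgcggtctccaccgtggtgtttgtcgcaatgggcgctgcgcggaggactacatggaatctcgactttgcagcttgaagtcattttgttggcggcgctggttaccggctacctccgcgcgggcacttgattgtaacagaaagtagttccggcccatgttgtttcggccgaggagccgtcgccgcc
MBD6: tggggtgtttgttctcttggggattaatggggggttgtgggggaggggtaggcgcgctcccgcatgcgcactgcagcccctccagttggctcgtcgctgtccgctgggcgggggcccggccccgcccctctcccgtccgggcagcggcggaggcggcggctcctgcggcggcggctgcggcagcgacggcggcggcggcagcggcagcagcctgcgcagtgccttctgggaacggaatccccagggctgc
ASXL1: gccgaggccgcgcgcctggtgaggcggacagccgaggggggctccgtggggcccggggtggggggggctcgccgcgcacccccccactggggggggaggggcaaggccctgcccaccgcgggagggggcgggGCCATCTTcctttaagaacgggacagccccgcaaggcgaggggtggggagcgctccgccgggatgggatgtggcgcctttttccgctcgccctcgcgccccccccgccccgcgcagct
The capitals mark GCCATCTT, the reverse complement of the YY1 core AAGATGGC, which starts 118 bases before the internal ASXL1 start site that this window precedes. YY1 is a zinc finger factor known to bind HCF-1 and BAP1. The FOXK motif GTAAACA, the YY1 motif, the ZNF143 and THAP11 motif ACTACAA and the E2F motif TTTCGCGC were searched on both strands. This was the single match, overlapped by no other, in the 11 windows of 300 bases of the 8 members that have one, and among all 35116 windows 3.42%, 2.89%, 2.77% and 0.515% hold these motifs in turn. The windows of OGT, MBD6 and this ASXL1 start had 57.7%, 75.7% and 77.7% G or C, beside a median of 58.7% over all windows.

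Genes around the complex were described from lists of related enzymes and of partners. These lists were chosen with earlier results of these data known. Their counts and medians are therefore descriptions beside the values of all genes, and mark nothing particular to the lists. Of 12 H2A deubiquitinases and relatives of BAP1, 10 were tested. In BAP1 KO against control USP46 rose and UCHL3 fell, which is 2 of 10, where 22.4% of all tested genes passed. The median log2 fold change was -0.09 for the list and 0.01 for all tested genes. USP46, a ubiquitin protease known to act on histones H2A and H2B, had 283 and 240 CPM in BAP1 KO, against 51 and 52.7 CPM in control. Its libraries were far apart, at a log2 fold change of 2.33 ± 0.13 or 5.04-fold (adjusted p = 1.1e-05), and leaving out any 1 of the 8 libraries kept the call, at 2.21 to 2.45. USP46 had 72.2 and 77.4 CPM in MLL4 KO, against 57.9 and 57.5 CPM in WT, a log2 fold change of 0.37 ± 0.12 (adjusted p = 0.0565). UCHL3, a ubiquitin hydrolase of the same family as BAP1, had 9.16 and 13.1 CPM in BAP1 KO, against 18.1 and 20.1 CPM in control. It fell by 0.78 ± 0.19 in log2 units (adjusted p = 0.0195), a call lost without BAP1 KO replicate 1 (0.149), control replicate 1 (0.087) or control replicate 2 (0.153).

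In MLL4 KO against WT, UCHL3, USP16 and BRCC3 of these 10 genes fell and none rose, where 10% of all tested genes fell and 9.13% rose. The median log2 fold change was -0.36 for the list and 0.00 for all tested genes. UCHL3 fell by 0.84 ± 0.20 in log2 units (adjusted p = 0.0238), the H2A deubiquitinase gene USP16 fell by 0.67 ± 0.16 (0.0225), and BRCC3, which cleaves K63-linked ubiquitin chains, fell by 0.63 ± 0.14 (0.0205). Each lost its call without MLL4 KO replicate 2 (adjusted p = 0.107, 0.126 and 0.113), without WT replicate 2 (0.104, 0.103 and 0.0792), without control replicate 1 (0.0602, 0.0589 and 0.0587) and without control replicate 2 (0.0564, 0.0554 and 0.0541), and UCHL3 also without MLL4 KO replicate 1 (0.0555). In the fit on the 4 libraries of the comparison they were at 0.0934, 0.111 and 0.109. In control against WT, where 39.6% of all tested genes passed, USP22 and BRCC3 fell, by 0.45 ± 0.11 (adjusted p = 0.0103) and 0.68 ± 0.14 (0.0052). USP22, a deubiquitinase of the SAGA coactivator, lost that call without control replicate 1 or 2 (0.101 and 0.104), and BRCC3 without control replicate 2 (0.0753).

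**Figure D5:**
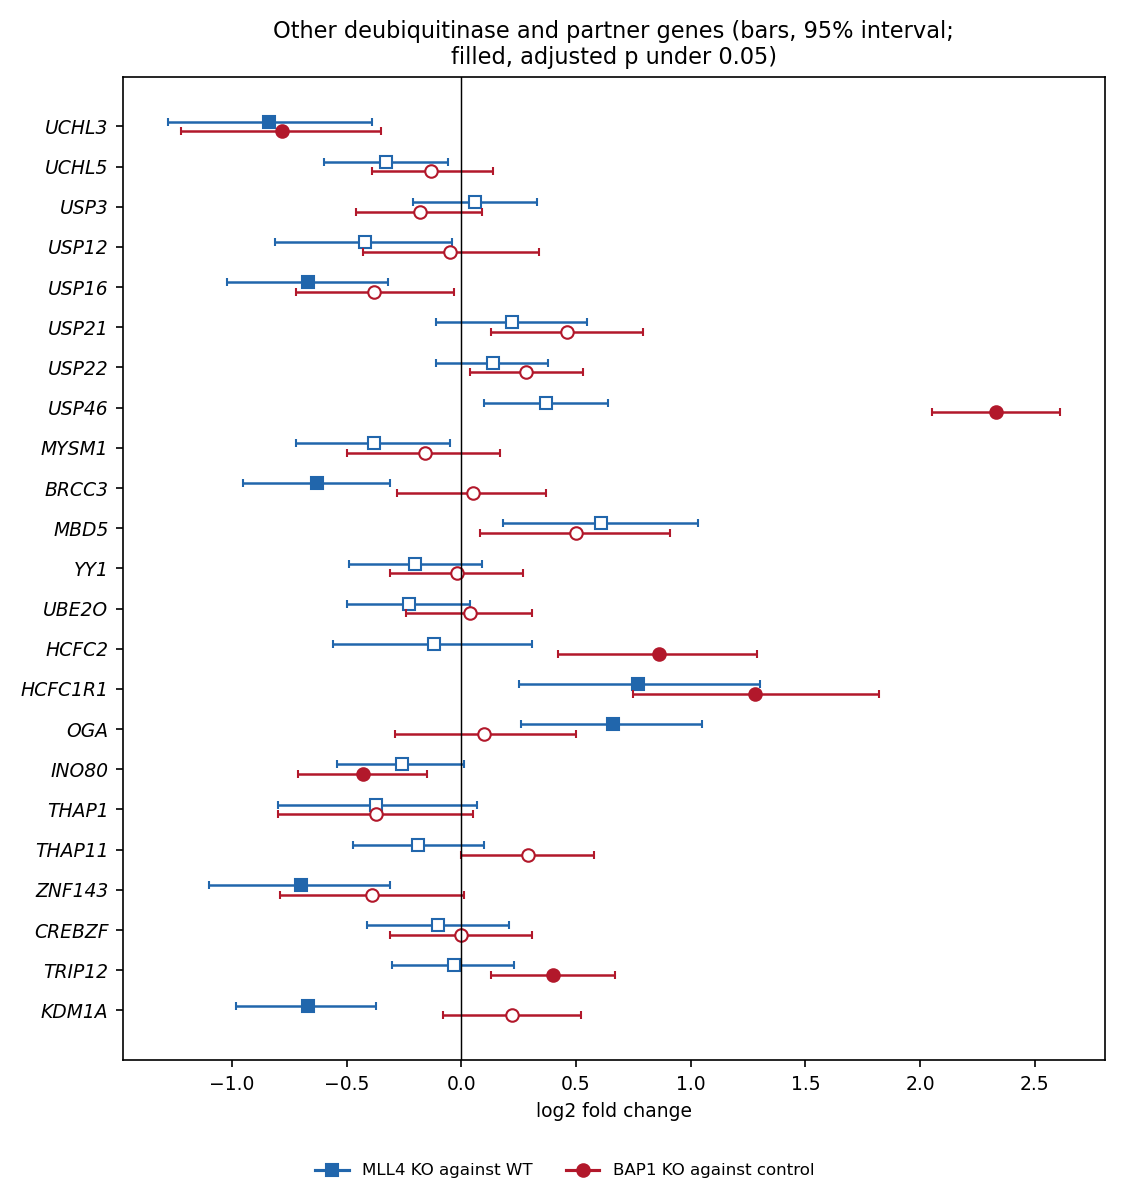
Log2 fold changes (points) with 95% confidence intervals (bars) of 10 deubiquitinase genes and 13 partner or regulator genes in BAP1 KO against control (circles) and MLL4 KO against WT (squares), 2 libraries per group; filled points passed an adjusted p of 0.05. USP46 stands alone on the right at 2.33 in BAP1 KO, and UCHL3 and HCFC1R1 are filled in both comparisons.

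All 13 partners and regulators were tested. In BAP1 KO against control HCFC1R1, HCFC2 and TRIP12 rose and INO80 fell, which is 4 of 13, where 22.4% of all tested genes passed. The list's median log2 fold change was 0.10, against 0.01 for all tested genes. HCFC1R1, which encodes a small protein that binds HCF-1, had 43.8 and 54.9 CPM in BAP1 KO, against 19.6 and 20.9 CPM in control, a log2 fold change of 1.28 ± 0.24 (adjusted p = 0.00579). HCFC2, the paralog of HCFC1, had 11.6 and 9.69 CPM in BAP1 KO, against 5.91 and 5.87 CPM in control, a log2 fold change of 0.86 ± 0.19 (adjusted p = 0.0135). The libraries of neither gene overlapped between the groups. TRIP12, a ubiquitin ligase reported to act on ASXL1, changed by 0.40 ± 0.12 (adjusted p = 0.0391), and INO80, a remodelling ATPase reported as a BAP1 substrate, fell by 0.43 ± 0.12 (0.0342). Without control replicate 1 and without control replicate 2 the adjusted p was 0.0665 and 0.0561 for HCFC1R1, 0.108 and 0.13 for HCFC2, 0.261 and 0.21 for TRIP12, and 0.185 and 0.174 for INO80. Without BAP1 KO replicate 1 it was 0.11 for HCFC2, 0.17 for TRIP12 and 0.182 for INO80, and without BAP1 KO replicate 2 it was 0.106 for TRIP12 and 0.11 for INO80. TRIP12 was also at 0.0516 with no filter on low counts, and kept its call in 14 of 20 alternatives.

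In MLL4 KO against WT, OGA and HCFC1R1 rose and KDM1A and ZNF143 fell, which is 4 of 13, where 19.1% of all tested genes passed. Over the list the median log2 fold change was -0.19, against 0.00 for all tested genes. OGA had 271 and 311 CPM in MLL4 KO, against 220 and 149 CPM in WT, a log2 fold change of 0.66 ± 0.18 (adjusted p = 0.0328). KDM1A, the H3K4 demethylase LSD1 and paralog of KDM1B, had 175 and 152 CPM in MLL4 KO, against 234 and 289 CPM in WT, and fell by 0.67 ± 0.14 in log2 units (0.0156). ZNF143, a promoter factor that works with HCF-1 and THAP11, fell by 0.70 ± 0.18 (0.0279), and HCFC1R1 changed by 0.77 ± 0.23 (0.0472). In the fit on the 4 libraries OGA, KDM1A, ZNF143 and HCFC1R1, in that order here and in the next sentence, were at adjusted p = 0.129, 0.0952, 0.124 and 0.145. Without MLL4 KO replicate 2 they were at 0.15, 0.0877, 0.148 and 0.167, and without WT replicate 2 at 0.122, 0.0566, 0.145 and 0.158. OGA, ZNF143 and HCFC1R1 also missed the threshold without control replicate 1 (0.0688, 0.07 and 0.0892) or control replicate 2 (0.0719, 0.0655 and 0.0912). OGA was at 0.0539 without either BAP1 KO library, and HCFC1R1 at 0.0655 and 0.0658 without BAP1 KO replicate 1 or 2 and 0.0895 without MLL4 KO replicate 1. HCFC1R1 kept its call in 7 of 21 alternatives, and its log2 fold change was 1.22 without WT replicate 1 and 0.42 without WT replicate 2. That of OGA was 0.40 without WT replicate 2.

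In control against WT, OGA rose and KDM1A, UBE2O and THAP11 fell, which is 4 of 13, where 39.6% of all tested genes passed. The list's median log2 fold change was -0.12, against 0.02 for all tested genes. OGA changed by 0.71 ± 0.18 (adjusted p = 0.0108), with 0.0578 and 0.0662 without control replicate 1 or 2 and a log2 fold change of 0.46 without WT replicate 2. KDM1A fell by 1.03 ± 0.14 (0.000541), a call that no left-out library ended. UBE2O, a ligase that ubiquitinates BAP1, fell by 0.61 ± 0.12 (0.00419), with 0.0663 without control replicate 2. THAP11, which recruits HCF-1 to promoters, fell by 0.43 ± 0.13 (0.026), with 0.0628, 0.127 and 0.198 without WT replicate 2, control replicate 1 or control replicate 2. MBD5, the paralog of MBD6, passed in no comparison, at 0.50 ± 0.18 in BAP1 KO against control (0.082), 0.61 ± 0.19 in MLL4 KO against WT (0.0512) and 0.52 ± 0.19 in control against WT (0.0538). In these bulk samples fewer expressing cells and less RNA per cell cannot be told apart for any of these genes.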

How the data were processed

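Poly(A) RNA-seq of HCT116 cells gave 8 libraries, grouped and numbered by their titles into BAP1 KO, control, MLL4 KO and WT (2 each). Each deposited table gives, per the file headers, the read count and the RPKM of each RefSeq transcript. The deposited counts are raw whole numbers. The RPKM values deposited by the authors are scaled to transcript length and library reads, and entered no test. The submitters' processing notes name hg38, bcl2fastq, Bowtie2, STAR and SICER 1.1, while the sources used here give no counter settings, strand or annotation version.

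Identifiers were matched to symbols, positions and promoters through RefSeq tables of GRCh38.p14, and 605 of 88819 rows with no symbol (0.23% to 0.252% of counts) were left out. The row with the highest mean count stood for each of 28105 genes, because rows of isoforms repeat shared reads. edgeR 4.0.16 in R 4.3.3 kept 16831 genes by filterByExpr, scaled by TMM and fitted 1 quasi-likelihood model (robust) with a mean per group to all 8 libraries. Contrasts were two-sided, with Benjamini-Hochberg adjustment over all tested genes and a threshold of 0.05. An SE is the size of the log2 value divided by the root of its F statistic, and 95% intervals use the moderated degrees of freedom. Levels are TMM-scaled CPM. In simulated counts of 16538 genes, drawn for MLL4 KO against WT, the model recovered 70% of 2-fold and 96% of 4-fold changes. Of its 176 calls there, 10 were false. Whether these rates hold for the deposited libraries, whose replicates differ in noise, was not tested.

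The members and lists were chosen with earlier results of these data known. Named genes are the 10 members, KMT2D, the list genes past the threshold in at least 1 comparison, and the 3 genes with the highest Pearson r with BAP1. MBD5, DDIT3, DCTN2, COL1A1, CD68 and the single epithelial markers were named in addition after their values were seen. Alternatives tried were DESeq2 1.42.0, limma-voom (limma 3.58.1), upper-quartile or RLE scaling, other filters on low counts, the longest or summed transcript rows, a fit on 4 libraries, no robust step, a replicate block and leaving out each library. Chosen after seeing the data were the legacy dispersion and a block with crossed pairs.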

Additional observations from a re-analysis of the deposited data

Results flagged for a closer look

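Genes were singled out here when the effect of MLL4 KO (against WT) and that of BAP1 KO (against control) differed in edgeR's test of the difference, MLL4 KO minus BAP1 KO on the log2 scale, adjusted over all tested genes. Knockout, line and counting cannot be told apart in that difference. Among the complex members the genes singled out were OGT, with a difference of 0.96 ± 0.19 (SE, adjusted p = 0.012), and HCFC1, with -0.95 ± 0.20 (0.0135), whose calls without single libraries are given above. Among the related genes, USP46 differed by -1.96 ± 0.17 (0.000601), and leaving out any 1 of the 8 libraries kept that call, at -2.07 to -1.84. KDM1A differed by -0.89 ± 0.19 (0.0155), and its adjusted p was 0.0577 without BAP1 KO replicate 1, 0.0513 without its replicate 2, 0.0815 without control replicate 1 and 0.0964 without its replicate 2. HCFC2 differed by -0.98 ± 0.27 (0.0408), with 0.0559 to 0.17 without BAP1 KO replicate 1 or 2, MLL4 KO replicate 2, WT replicate 2, or control replicate 1 or 2. BRCC3 differed by -0.68 ± 0.20 (0.049), with 0.0839 to 0.226 without any 1 of those same 6 libraries. HCFC2 kept its call in 10 of 19 alternatives and was also at 0.0598 with upper-quartile scaling, 0.0573 with the replicate block and 0.0624 with summed transcript rows. BRCC3 kept its call in 7 of 19 and was also at 0.0776 with upper-quartile scaling, 0.0674 with no filter on low counts, 0.068 with the replicate block, 0.0501 with no robust step, and 0.0508 with summed rows and with the legacy dispersion.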

How the results depend on the processing

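Across alternatives, the calls of HCFC1, OGT, FOXK1 and MBD6 in control against WT held in 20 of 20. The members past the threshold numbered 3 in MLL4 KO against WT, 0 in a fit on the 4 libraries of that comparison and 0 to 3 when 1 library was left out. In BAP1 KO against control they numbered 1, then 2 in the fit on 4 libraries and 0 to 2 with 1 library left out. For the difference of the effects they numbered 2, and 0 to 3 with 1 library left out. Over all genes, 3219 passed in MLL4 KO against WT (1536 higher, 1683 lower; 1886 and 1211 with upper-quartile scaling), 60 in the fit on 4 libraries and 530 to 5290 with 1 left out. In BAP1 KO against control 3778 passed, 6660 in the fit on 4 libraries and 1075 to 5014 with 1 left out. In control against WT 6662 passed, and 3253 to 7269 with 1 left out. For the difference 2704 passed (1304 higher, 1400 lower; 1588 and 1080 with upper-quartile scaling), and 681 to 4426 with 1 left out. The cause was not tested. Replicate numbers did not pair the libraries (r of same-numbered deviations 0.0058 between BAP1 KO and control, -0.143 between MLL4 KO and WT). With the replicate block 3, 0, 5 and 2 members passed in MLL4 KO, BAP1 KO, control against WT and the difference, and in BAP1 KO against control ASXL1 was at adjusted p = 0.0518 and TRIP12 at 0.0544. Over all genes the block left 2360, 3312, 6194 and 2185 past the threshold in the same order, and HCFC1R1 was at 0.0657 in MLL4 KO. With the pairs of MLL4 KO and WT crossed, 3 members and 3367 genes passed.

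Signs that changed belonged to values that did not pass. In MLL4 KO against WT, ASXL2 was 0.07 and TRIP12 0.05 with upper-quartile scaling, and KMT2D was 0.00 with RLE scaling, DESeq2 and the crossed block and -0.01 with limma-voom. With 1 library left out, ASXL2 ranged from -0.10 to 0.07, KMT2D from -0.26 to 0.26, HCFC2 from -0.27 to 0.02 and TRIP12 from -0.15 to 0.09. In BAP1 KO against control the ranges were -0.05 to 0.18 for BAP1, -0.05 to 0.22 for KDM1B, -0.13 to 0.10 for KMT2D, -0.03 to 0.11 for BRCC3 and -0.03 to 0.08 for UBE2O. In control against WT they were -0.13 to 0.28 for USP16, -0.24 to 0.04 for INO80, -0.33 to 0.10 for ZNF143 and -0.24 to 0.00 for TRIP12. For the difference, KMT2D ranged from -0.25 to 0.27 and UCHL3 from -0.30 to 0.23, and UCHL3 was 0.05 with upper-quartile scaling. For ASXL3, with 0 counts in all 8 libraries, no expression and a level below what this depth can detect cannot be told apart.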
